A study of Mus musculus with 8 samples.

Results

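Small RNAs of mouse embryonic stem (MES) cells were compared with those of mouse embryonic fibroblasts (MEFs), both measured by TEsR, in which small RNAs with ligated linkers are enriched by hybridisation to probes and sequenced. Of the 8 samples of the series, the 6 made by TEsR were used, 2 from MES cells and 4 from MEFs. The MEF libraries were treated as 1 group, induced or not. The MEFs carried a conditional knockout of TRF2, a protein that caps telomeres, with a Cre recombinase fused to the oestrogen receptor (CreERT2) at the Rosa26 locus. By the labels, 2 of the MEF samples were induced with 0.6 µM 4-hydroxytamoxifen for 48 h and 2 were not. The MEF count columns carry the codes mm and pm, which the labels do not explain, so induced and uninduced MEFs could not be told apart and are named here mmS1, mmS2, pmS1 and pmS2. MES cells were grown without feeders in medium with leukaemia inhibitory factor and are labelled as not induced. Their genotype is not given in the sources used here, nor are the age and strain of the embryos behind either cell type. Cell type therefore cannot be told apart from the culture medium or from the alleles that only the MEFs are stated to carry. The messenger RNA of TRF2 is not among the small RNAs counted, so the deletion itself was not analysed here. All libraries were sequenced on a MiSeq. No label states separate cultures within a group, so the p-values below read the spread among these 6 libraries, part of which may be technical.

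MicroRNAs (miRNAs) are short RNAs that guide Argonaute proteins to messenger RNAs, mainly through the seed, bases 2 to 8 of the mature strand. Stem cells and fibroblasts are known for different sets of them, the miR-290 cluster (Mir290a to Mir295) in mouse stem cells and let-7, miR-21, miR-29 and miR-214 in fibroblasts. Small nucleolar RNAs (snoRNAs) guide the modification of ribosomal RNA, by 2′-O-methylation for the C/D box class and by pseudouridylation for the H/ACA box class, and most are cut from introns of host genes. A few of them, among them U3, U8 and U14, act in the cleavage of the ribosomal RNA precursor instead.

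The sequences that follow belong to the miRNAs on which the comparison turns. They are the mature strands in RefSeq on GRCm38.p6, written 5′ to 3′ with the seed in capitals. The table counts hairpin rows, so no value belongs to a single strand, and directions are those of the rows. The first 4 strands, from rows of the miR-290 and miR-302 clusters that were higher in MES cells, share 1 seed.
mmu-miR-291a-3p (chr7:3218968-3218989, plus strand): aAAGUGCUuccacuuugugugc
mmu-miR-294-3p (chr7:3220691-3220712, plus strand): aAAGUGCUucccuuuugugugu
mmu-miR-295-3p (chr7:3220815-3220837, plus strand): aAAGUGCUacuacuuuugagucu
mmu-miR-302b-3p (chr3:127545275-127545297, plus strand): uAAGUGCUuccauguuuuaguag
The next 3 share another seed, which is that of the first group moved by 1 base, and were found at very different levels. They come from the miR-106a-363 cluster (miR-106a and miR-20b) and the miR-106b-25 cluster (miR-106b).
mmu-miR-106a-5p (chrX:52742541-52742563, minus strand): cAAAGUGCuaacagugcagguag
mmu-miR-20b-5p (chrX:52742159-52742181, minus strand): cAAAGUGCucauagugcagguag
mmu-miR-106b-5p (chr5:138165787-138165807, minus strand): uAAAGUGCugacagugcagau
Of the epithelial miRNAs, the rows of these were higher in MES cells.
mmu-miR-205-5p (chr1:193507503-193507524, minus strand): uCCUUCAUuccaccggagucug
mmu-miR-200c-3p (chr6:124718324-124718346, minus strand): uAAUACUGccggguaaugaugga
The last set comes from rows lower in MES cells, with miR-221 and miR-222 sharing a seed. The strand of miR-29b is made from both Mir29b-1 and Mir29b-2, and its position is that of Mir29b-2.
mmu-miR-221-3p (chrX:19146307-19146329, minus strand): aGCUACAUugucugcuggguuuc
mmu-miR-222-3p (chrX:19146901-19146923, minus strand): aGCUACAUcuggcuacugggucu
mmu-miR-29b-3p (chr1:195037091-195037113, plus strand): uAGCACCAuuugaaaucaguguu
mmu-miR-21a-5p (chr11:86584120-86584141, minus strand): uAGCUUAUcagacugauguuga
mmu-miR-214-3p (chr1:162223438-162223459, plus strand): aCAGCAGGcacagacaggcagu
mmu-let-7i-5p (chr10:122985698-122985719, minus strand): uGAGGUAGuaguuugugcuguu

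For the snoRNAs, the sequences are those of the GENCODE vM21 transcripts on GRCm38, with T for U. Capitals mark a C box (TGATGA) in the first 25 bases and a D box (CTGA) in the last 25 bases of C/D box snoRNAs, or the ACA that lies 3 bases before the end of an H/ACA snoRNA. The C box letters were found in 22.1% of the 1485 snoRNA rows, the D box letters in 57.4% and the terminal ACA in 18%, each read on the strand of the row only. The first pair made up most of every library.
Snord68 (chr8:123103038-123103123, plus strand): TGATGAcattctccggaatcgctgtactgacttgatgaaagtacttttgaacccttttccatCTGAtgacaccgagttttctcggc
Snord70 (chr1:59691934-59692020, plus strand): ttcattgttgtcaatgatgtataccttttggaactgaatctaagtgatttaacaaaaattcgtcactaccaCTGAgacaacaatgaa
These were among those with the largest ratios in favour of MES cells, or among the most abundant of those higher there.
Snora21 (chr11:97781639-97781775, minus strand): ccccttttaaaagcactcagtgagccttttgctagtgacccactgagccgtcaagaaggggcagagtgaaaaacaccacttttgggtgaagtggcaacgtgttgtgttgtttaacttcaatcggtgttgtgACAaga
Snord82 (chr1:86356261-86356330, minus strand): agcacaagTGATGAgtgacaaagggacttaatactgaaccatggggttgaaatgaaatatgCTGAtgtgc
Gm26224 (chr1:161035394-161035473, plus strand): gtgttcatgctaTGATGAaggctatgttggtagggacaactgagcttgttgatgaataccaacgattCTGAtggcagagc
Gm22357 (chr1:161036057-161036139, plus strand): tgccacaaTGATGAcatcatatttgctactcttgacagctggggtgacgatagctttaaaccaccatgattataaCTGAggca
Snord14a (chr7:116333171-116333257, minus strand): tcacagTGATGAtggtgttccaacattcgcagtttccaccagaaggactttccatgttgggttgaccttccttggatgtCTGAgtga
These were abundant in MEFs and lower in MES cells.
Snord111 (chr8:110838528-110838616, minus strand): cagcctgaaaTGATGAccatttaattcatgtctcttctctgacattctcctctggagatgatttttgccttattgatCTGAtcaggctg
Snord4a (chr11:78181686-78181756, minus strand): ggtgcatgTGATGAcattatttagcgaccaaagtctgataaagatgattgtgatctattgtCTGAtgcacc
Gm25878 (chr2:167063473-167063565, plus strand): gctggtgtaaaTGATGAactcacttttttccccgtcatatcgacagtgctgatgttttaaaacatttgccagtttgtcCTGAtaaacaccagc

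The deposited table holds 5518 rows of annotated small RNAs, of which 5441 were left after each set of identical overlapping rows was reduced to 1, and 579 of these had a count in any library. Totals ran from 3212740 to 3759302 counts in the MEF libraries and were 2746605 and 2646600 in MES replicates 1 and 2. Levels are counts per 1000000 counts of the library (CPM), where 3 counts, the level taken as the limit of what a count of 0 allows, are worth 0.798 to 1.13 CPM. Reads carried no molecular identifiers, so intervals and limits cover counting error only. The library mmS2 stood apart from the other MEF libraries: it had the lowest level of the 4 in 77 of 109 tested miRNA rows. The labels' protocols state that RNA was isolated with or without a step that enriches small RNA and do not say which samples had it.

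SnoRNAs made up nearly all counts in both cell types, and miRNAs took a larger share in MEFs. Rows annotated as snoRNA held 99.71% ± 0.00144 (SD, n = 2) of the counts in MES libraries and 95.16% ± 2.46 (SD, n = 4) in MEF libraries. The miRNA rows held 0.2797% and 0.2792% in the MES libraries, against 5.60% in mmS1, 1.54% in mmS2, 7.43% in pmS1 and 4.78% in pmS2. All 4 MEF libraries were above both MES libraries, and the mean MEF share, 4.835% ± 2.46 (SD, n = 4), was 17.3 times the mean MES share. Of the MES miRNA counts, 6659 of 7681 and 6428 of 7389 came from rows that overlap no snoRNA, with AC161199.1 left out. In MEFs these were 207850 of 208377 in mmS1, 57188 of 57820 in mmS2, 261188 of 261792 in pmS1 and 153316 of 153473 in pmS2. The shares above include the remaining counts. Small nuclear RNAs (snRNAs), the RNAs of the spliceosome and of related particles, lay in the opposite order, at 0.00277% ± 0.000662 (SD, n = 2) in MES against 0.000876% ± 0.000487 (SD, n = 4) in MEF libraries. In each of these 3 classes the groups did not overlap, and the exact two-sided permutation test of 2 against 4 libraries gave p = 0.133. That is the smallest value this test allows, so it cannot fall under 0.05. The shares of miRNA and snoRNA rows together make up nearly all counts, so their differences are not separate results. Ribosomal RNA rows had 1 count in pmS2 and none in the other 5 libraries, where 0 counts allow shares of up to 7.98e-05% to 1.13e-04%. In bulk RNA, fewer cells that make an RNA and less of it per cell cannot be told apart.

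Thinned to 2646600 counts each, the libraries showed similar numbers of RNAs with at least 10 counts, but not by class. Rows with at least 10 counts numbered 200.5 ± 3.54 (SD, n = 2) in MES against 201 ± 14.3 (SD, n = 4) in MEF libraries (exact two-sided permutation test, p = 1). For miRNA rows the numbers were 54 and 58 in MES against 96, 66, 97 and 81 in MEF libraries. For snoRNA rows they were 141 and 142 in MES against 114 in each MEF library. The groups did not overlap in either class, with p = 0.133 by the same exact permutation test. With 1 count as the minimum, all rows together also did not overlap, at 390 and 393 in MES against 350, 301, 370 and 338 in MEF libraries (exact permutation p = 0.133).

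A pair of C/D box snoRNAs made up 76.5% to 83.3% of every library. Snord68, inside the ribosomal protein gene Rpl13, was at 537800 and 551200 CPM in MES and at 413600, 425500, 391800 and 359100 CPM in the MEF libraries. Snord70, in an intron of Nop58, the gene of a core protein of C/D box particles, was at 282800 and 281600 CPM in MES and at 383700, 407400, 372900 and 432100 CPM in MEFs. The groups did not overlap for either RNA, and they lay in opposite order. After scaling for composition, Snord68 was 1.21 ± 0.28 (SE) higher in MES on the log2 scale (edgeR adjusted p = 0.00267), and Snord70 differed by 0.24 ± 0.30 (SE), which was not called (edgeR adjusted p = 0.475). Without MES replicate 2, Snord68 was at 1.13 and not called (edgeR adjusted p = 0.053). These directions depend on the scaling. With library size alone the log2 difference of Snord70 was -0.50, and with scaling over snoRNA rows alone it was -1.23 for Snord70 and -0.27 for Snord68.

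Differences were tested for the 260 rows with enough counts, by edgeR's quasi-likelihood test with trimmed mean of M-values (TMM) scaling. Log2 fold changes are MES minus MEF throughout, and a row is called at a Benjamini-Hochberg adjusted p under 0.05 over the 260 rows. In MES cells, 114 rows were higher, 43.8% of those tested, 82 were lower, 31.5%, and 64 were not called. The groups did not overlap in 218 rows. The filter on low counts can be passed through 1 group alone, and such a row can only be called in that direction. Of the tested rows, 48 passed through the MES libraries alone, all 48 called higher, and 59 through the MEF libraries alone, 40 of them called lower. Of the 152 rows that either group alone would have passed, 66 were higher and 42 lower. Without mmS2, 91 rows were lower, of which 67 were miRNA rows. Over all tested rows the median log2 fold change was 0.49 with TMM scaling and -0.36 with library size alone, under which 104 rows were higher and 104 lower. A log2 fold change therefore lies above the ratio of CPM by about the difference of these medians, and a row near 0 can change direction with the scaling.

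**Figure D1:**
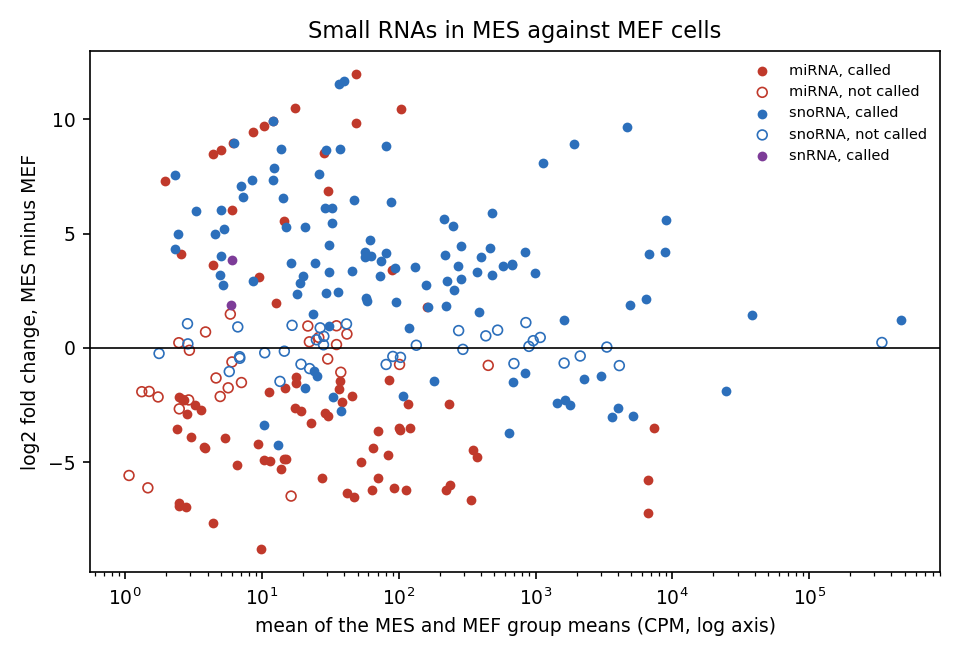
Each point is 1 tested row, at the mean of its MES and MEF levels (CPM, log axis) and its log2 fold change, MES minus MEF. MiRNAs are in red, snoRNAs in blue and snRNAs in purple, filled where called. Of the 260 tested rows, Gm22574, which is of none of these types and was not called, is not drawn. Most called snoRNAs lie above 0 and most called miRNAs below it. Fold changes of rows with no count in 1 group depend on the prior count of the fit.

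The classes moved in opposite directions. The 109 tested miRNA rows split into 21 higher (19.3%) and 61 lower (56.0%) in MES, with a median log2 fold change of -2.28. Of 148 tested snoRNA rows, 91 were higher (61.5%) and 21 lower (14.2%), with a median of 2.49, and both tested snRNA rows were higher. Because the shares of the classes differ so much, each class was also fitted and scaled on its own. Scaled alone, 127 miRNA rows were tested, 38 higher and 32 lower, with a median of -0.01. Scaled alone, 148 snoRNA rows were tested, 73 higher and 43 lower, with a median of 0.98. Of the rows that either group would have passed, 4 miRNA rows were higher and 23 lower, and 61 snoRNA rows were higher and 19 lower. The 4 higher miRNA rows were Mir93, Mir467c, AC161199.1 and mmu-mir-5121. Of these, mmu-mir-5121 shares nearly all reads with Snord33, and AC161199.1 is left out of the miRNA totals used below. Mir93, Mir467c and mmu-mir-5121 were not called with library size alone.

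The stem cell clusters separated the libraries by their labels. All 7 rows of the miR-290 cluster were tested and higher in MES, against 19.3% of tested miRNA rows. They passed the filter on low counts through the MES libraries alone. Their summed counts were 1260 and 1298 in MES, 5 in mmS2 and 0 in the other 3 MEF libraries. The cluster took 19.6% ± 0.899 (SD, n = 2) of the miRNA counts of MES libraries, counted over miRNA rows that overlap no snoRNA and with AC161199.1 left out. Mir292, its most abundant row, had 529 and 594 counts in MES and 3 in mmS2 as its only MEF counts. Mir295 had 267 and 257 counts in MES and 2 in mmS2 alone among the MEF libraries. Mir291a had 284 and 245 counts in MES and none in any MEF library. Mir294, with 92 and 97 counts in MES and none in MEFs, was at least 41.4-fold higher there, with 3 counts per library as the limit. These miRNAs are known to promote the rapid cell cycle of stem cells. The 5 counts in mmS2 were the only ones of this cluster in MEFs.

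The miR-302 cluster, also known from pluripotent cells, was found in MES libraries only, at a far lower level. Its 5 rows summed to 63 and 85 counts in MES and 0 in all MEF libraries. Mir302a, with 47 and 65 counts, was at least 24.6-fold higher in MES, and Mir302b, with 10 and 11 counts, at least 4.6-fold. Both passed the filter on low counts through the MES libraries alone. The other 3 rows had 1 to 5 counts in a MES library and were not tested.

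Paralogous clusters of the miR-17 family differed from each other. The miR-106a-363 cluster on the X chromosome was seen mainly in MES: Mir20b had 73 and 57 counts there, Mir106a had 28 and 38, and neither had a count in any MEF library. They were at least 28.4-fold and at least 14.5-fold higher in MES, and both passed the filter through the MES libraries alone. Mir106b, in an intron of the replication gene Mcm7, was instead one of the most abundant miRNAs of both cell types. Its counts were 60837, 18526, 77721 and 40387 in the MEF libraries mmS1, mmS2, pmS1 and pmS2 and 1916 and 1787 in MES, a log2 change of -3.49 ± 0.51 (SE; edgeR adjusted p = 1.52e-04). Every MEF library exceeded both MES libraries. Mir25, from the same intron cluster, was also lower, at -2.45 ± 0.53 (SE; edgeR adjusted p = 0.00189), but at -0.35 and not called among miRNA rows alone. Mir93, the other member of that cluster, had 46 and 47 counts in MES against 43, 6, 46 and 21 in MEFs. It was called higher in MES, at 1.95 ± 0.60 (SE; edgeR adjusted p = 0.014). With library size alone the difference of Mir93 was 1.07 and not called (edgeR adjusted p = 0.199), nor was it called without MES replicate 1 (edgeR adjusted p = 0.0762) or 2 (edgeR adjusted p = 0.0931). Both clusters together took 32.6% ± 1.01 (SD, n = 2) of miRNA counts in MES and 30.4% ± 2.59 (SD, n = 4) in MEFs. Mir106b thus made up most of that share in either cell type.

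The miR-17-92 cluster, a MYC target that drives proliferation, took a larger part of the miRNA counts in MES. Of 5 tested rows, Mir92-1 was lower, at -1.75 ± 0.59 (SE; edgeR adjusted p = 0.021), and 4 were not called. Its share of miRNA counts was 14.1% and 13.7% in MES and 1.73% to 2.35% in MEF libraries, with no overlap. Its summed level was 342.2 and 332.9 CPM in MES and 357.5 to 1435 CPM in MEFs. Mir19a, which carried most of these counts, had 620 and 574 counts in MES against 2583, 998, 3914 and 2095 in MEFs. Its log2 fold change was -0.76 ± 0.43 (SE; edgeR adjusted p = 0.133), and 1.30 among miRNA rows alone (edgeR adjusted p = 0.00557). Mir18 likewise went from -0.72 to 1.39, and Mir92-1 from -1.75 to 0.31, when scaled to miRNA rows. Whether these rows are called higher or lower thus rests on the scaling, and without mmS2 Mir19a was called lower, at -1.08 (edgeR adjusted p = 0.0194), as was Mir18, at -1.05. Mir20a was called higher without mmS1, at 1.42, against the pm pair of MEF libraries, at 1.15, and among miRNA rows alone, at 3.12 (edgeR adjusted p = 2.76e-04). Mir92-1 was not called without MES replicate 1 (edgeR adjusted p = 0.0606) or 2 (edgeR adjusted p = 0.189).

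The miRNAs of fibroblasts and other mesenchymal cells were lower in MES. Of 28 rows in the list, 27 had a count and 21 were tested, of which 18 were lower, none was higher and 3 were not called, with a median log2 fold change of -5.66. Of the lower rows, only Mir21a, Mir27a, Mir27b, Mir29b-1, Mir29b-2 and Mir221 would have passed the filter through either group. The others, Mir214, Mir222 and Mir143 among them, passed it through the MEF libraries alone and could only be called lower. Over all tested rows the median was 0.49, and over tested miRNA rows, of which 56.0% were lower, it was -2.28. Among miRNA rows alone, 17 rows of the list were lower and none higher. They took 60.2% ± 4.4 (SD, n = 4) of miRNA counts in MEFs and 9.64% ± 0.619 (SD, n = 2) in MES.

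**Figure D2:**
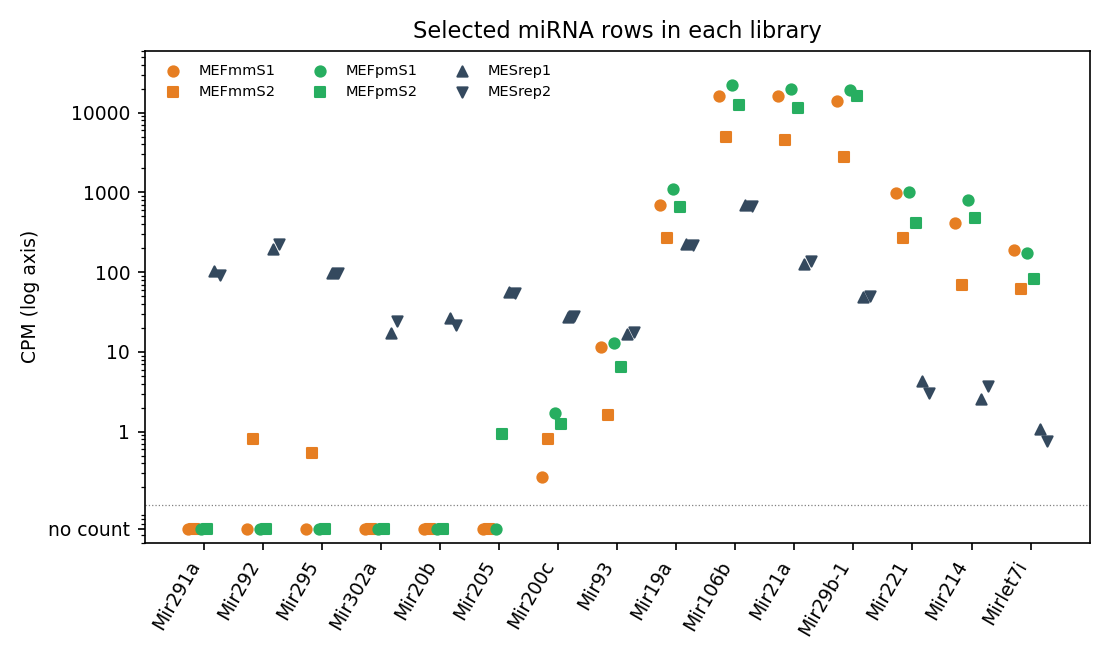
Levels of 15 miRNA rows (CPM, log axis) in each of the 6 libraries, with rows at 0 drawn on the line marked no count, circles and squares for the MEF libraries and triangles for the MES libraries. Rows of the miR-290 and miR-302 clusters and Mir20b are at or near no count in MEFs, and Mir21a, Mir29b-1, Mir221, Mir214 and Mirlet7i are lower in both MES libraries than in any MEF library. The orange square, mmS2, is the lowest MEF value of each row from Mir19a to Mirlet7i.

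Mir29b-1, of the family that targets collagens and other matrix genes, had 51547, 10611, 68568 and 52797 counts in the MEF libraries mmS1, mmS2, pmS1 and pmS2, and 134 and 133 in MES. Its log2 fold change was -7.21 ± 0.82 (SE; edgeR adjusted p = 3.08e-05). Mir21a, an abundant miRNA of stromal and cancer cells inside the Vmp1 gene, had 61052, 17008, 69764 and 36842 counts in MEFs and 350 and 370 in MES, a log2 change of -5.75 ± 0.59 (SE; edgeR adjusted p = 1.64e-05). For both, each MES library lay far below every MEF library. Mir221, which targets the cell cycle inhibitor p27, had 3616, 1015, 3616 and 1319 counts in MEFs and 12 and 8 in MES, a log2 change of -6.62 ± 0.69 (SE; edgeR adjusted p = 1.79e-05). Mir214, made from the mesenchymal transcript Dnm3os, had 1542, 260, 2810 and 1549 counts in MEFs and 7 and 10 in MES, a log2 change of -6.22 ± 0.95 (SE). Mir143 was at 98.9, 30.9, 168.5 and 121.1 CPM in MEFs and at 3.28 and 0.378 CPM in MES, and its neighbour Mir145a, known with it from smooth muscle and stroma, had 55, 30, 130 and 63 counts in MEFs and none in MES. The pair lay far apart between the cell types, Mir145a being at least 17.8-fold lower in MES. Other called members included Mir22, Mir29a, Mir29b-2 and Mir23a, with log2 fold changes from -6.51 to -4.68. Outside the list, Mir322 at -6.22 and Mir574 at -6.11 were among the miRNAs with the largest ratios in favour of MEFs. Both passed the filter through the MEF libraries alone. The Mir199 rows, also fibroblast markers, had at most 8 counts in a library and were not tested.

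The let-7 family, whose maturation Lin28 blocks in stem cells, had 11 of 12 rows with a count and 3 tested. All 3 were called lower in MES, against 56.0% of tested miRNA rows, and all 3 passed the filter through the MEF libraries alone. Mirlet7i had 709, 233, 616 and 265 counts in MEFs and 3 and 2 in MES, a log2 change of -6.22 ± 0.68 (SE). Mirlet7g followed at -4.86 ± 0.71 (SE). Mirlet7b, at -3.53 ± 1.44 (SE; edgeR adjusted p = 0.0393), was not called by DESeq2, among miRNA rows alone, or without MES replicate 1 (edgeR adjusted p = 0.0812) or 2 (edgeR adjusted p = 0.249). The family took 0.0467% and 0.135% of miRNA counts in MES and 0.258% to 0.561% in MEFs.

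Seeds put the same rows in another order. Of 109 tested miRNA rows, 100 had a mature strand in the RefSeq table. The rows counted for each seed below are those with such a strand, so a tested row without it is left out. The seed AAGUGCU of the first sequences above was shared by 4 tested rows, all higher in MES, and CUCAAAC by 3, Mir292 among them, all higher. All 7 passed the filter through the MES libraries alone. AGCACCA of the miR-29 family was shared by 4 tested rows, all lower, and GCUACAU by Mir221 and Mir222, both lower. AGCAGCA, the seed of the miR-15 and miR-16 family that restrains cyclins, was shared by 5 rows, Mir322 among them, all lower. Of the rows of these seeds, Mir29a, Mir29c, Mir222, Mir15a, Mir16-1, Mir16-2 and Mir322 passed the filter through the MEF libraries alone. Over all tested miRNA rows, 56.0% were lower and 19.3% higher. AAAGUGC, the seed of miR-17, miR-20, miR-93 and miR-106, was mixed, from -3.49 to 9.92 on the log2 scale. Of 6 rows, 3 were higher, 1 lower and 2 not called. Of the 3 higher, Mir20b and Mir106a passed the filter through the MES libraries alone. The strands of this family are alike, so reads of close relatives may not be placed with certainty.

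Of 5 tested rows in the list of miRNAs known from the p53 response and DNA damage, all 5 were lower in MES, against 56.0% of tested miRNA rows, and 4 of them, all but Mir34a, passed the filter through the MEF libraries alone. As a share of miRNA counts the order was opposite. The list took 0.345% and 0.404% of them in MES and 0.154% to 0.297% in MEF libraries, with no overlap. Mir15a was at -3.27 ± 0.71 (SE), and at -1.15 and not called among miRNA rows alone (edgeR adjusted p = 0.0576). Mir16-1 and Mir16-2, copies that yield the same mature strand and cannot be told apart by it, had no count in MES. They were at least 4.98-fold and at least 4.42-fold lower there. Mir192 was at -2.22 ± 0.88 (SE) and Mir34a, the best known p53 target among miRNAs, at -1.51 ± 0.63 (SE; edgeR adjusted p = 0.0485). Among miRNA rows alone 2 of the list were lower, Mir34a being at 0.46 and Mir192 at -0.26 (edgeR adjusted p = 0.918). Mir34a had 209, 95, 61 and 62 counts in MEFs and 16 and 17 in MES. It was not called without mmS1 (edgeR adjusted p = 0.0517), MES replicate 1 (edgeR adjusted p = 0.202) or MES replicate 2 (edgeR adjusted p = 0.174). Nor was it called with a replicate block (edgeR adjusted p = 0.0659), against the pm pair (edgeR adjusted p = 0.0972) or by limma voom (limma adjusted p = 0.142). Mir192 lost its call with DESeq2 (DESeq2 adjusted p = 0.0898), without a filter (edgeR adjusted p = 0.0553) and with the block (edgeR adjusted p = 0.0636). It was also not called without MES replicate 1 (-1.85) or 2 (-2.85).

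Of the epithelial list, 3 of 5 tested rows were higher in MES, against 19.3% of tested miRNA rows, and 2 were not called. The 3 passed the filter through the MES libraries alone. Mir205, known from stratified epithelia, had 157 and 146 counts in MES and 3 counts in pmS2 as its only MEF counts, a log2 change of 8.54 ± 0.89 (SE). Mir200c, which represses the mesenchymal factor Zeb1, had 76 and 74 counts in MES against 1, 3, 6 and 4 in MEFs, at 5.56 ± 0.57 (SE). Mir200b, of the same family, had 24 and 18 counts in MES against 12, 3, 0 and 0 in MEFs, at 3.63 ± 1.13 (SE; edgeR adjusted p = 0.0136). It was not called without MES replicate 1 (edgeR adjusted p = 0.113) or 2 (edgeR adjusted p = 0.0747). These 3 had at most 12 counts in a MEF library, whereas Mir182 of the sensory miR-183 cluster was seen in both. Mir182 had 50 and 40 counts in MES against 368, 193, 151 and 134 in MEFs, a log2 change of -1.06 ± 0.51 (SE; edgeR adjusted p = 0.081). It was lower and called, from -1.81 to -1.22, with DESeq2, RLE factors, library size alone, no filter, dominant rows left out, without pmS1 or pmS2, and against the mm pair. It was 0.89 and not called among miRNA rows alone. The summed level of the list was 134 and 127.3 CPM in MES and 68.9 to 136.5 CPM in MEFs, so the ranges overlapped. Its share of miRNA counts was 5.53% and 5.24% in MES and 0.109% to 0.453% in MEF libraries, with no overlap.

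Neural, muscle, blood and liver markers were nearly absent from both cell types, whereas the endothelial one was seen in both. The neural list had 0 to 5 counts in a library, the muscle list 0 to 17, the blood list 3 to 23 and the liver miRNA none in any. The endothelial Mir126a had 71 and 52 counts in MES against 160, 38, 128 and 89 in MEFs and was not called, at 0.46 ± 0.50 (SE; edgeR adjusted p = 0.401), though it was higher in MES among miRNA rows alone, at 2.56. Mir196b, which lies in the Hoxa cluster of body axis genes beside Hoxa9, had 65, 24, 160 and 65 counts in MEFs and 1 in each MES library, a log2 change of -4.92 ± 0.94 (SE). In the Sfmbt2 cluster, a large rodent repeat of miRNAs, Mir467c was higher in MES, at 3.10 ± 0.85 (SE), and Mir669e lower, at -3.94 ± 1.04 (SE). Mir196b and Mir669e passed the filter through the MEF libraries alone. Mir467c was not called with library size alone, nor Mir669e among miRNA rows alone or without MES replicate 2 (edgeR adjusted p = 0.0572). The imprinted Dlk1-Dio3 cluster had 12 of 49 rows with a count and 1 tested row, Mir431, with 13 and 18 counts in mmS2 and pmS2, 2 in MES replicate 2 and none elsewhere, which was not called.

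SnoRNAs higher in MES were led by RNAs that MEF libraries barely showed. Snora21, an H/ACA snoRNA in an intron of the ribosomal protein gene Rpl23, had 27723 and 22744 counts in MES against 54, 80, 159 and 17 in the MEF libraries mmS1, mmS2, pmS1 and pmS2. Its mean level was 9344 ± 1061 CPM (SD, n = 2) in MES against 21.6 ± 17 CPM (SD, n = 4) in MEFs, a log2 change of 9.64 ± 0.66 (SE; edgeR adjusted p = 2.68e-06). The ratio of mean CPM was 434. Snord82, in an intron of the nucleolin gene Ncl, had 6508 and 5568 counts in MES against 63, 56, 65 and 21 in MEFs, at 8.10 ± 0.44 (SE; edgeR adjusted p = 9.72e-07).

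Other snoRNAs had at most 3 counts in each MEF library, and those named here passed the filter through the MES libraries alone. Gm26247 had 472 and 391 counts in MES and 2 in each MEF library, a log2 change of 8.83 ± 0.43 (SE). Snord8, in an intron of the chromatin remodeller gene Chd8, had 196 and 204 counts in MES against 1, 0, 3 and 0 in MEFs. Snora43 had 218 and 180 counts in MES and none in MEFs, at least 87-fold higher. The row of its host Snhg7, typed as snoRNA in the annotation, covers Snora43 and was at least 94.2-fold higher, which mostly counts the same reads.

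SnoRNAs that act in ribosomal RNA cleavage were higher in MES. Of 11 rows of U3, U14, U17 and U8, 8 had a count and 6 were tested, all 6 higher, also among snoRNA rows alone, against 61.5% of tested snoRNA rows. Snord14a, Snord14c, Snord14d and Rnu3a passed the filter through the MES libraries alone. U14 rows were Snord14a, in Rps13, with 161 and 157 counts in MES and 1, 1, 0 and 1 in MEFs, and Snord14c, in Hspa8, with 156 and 126 against 3, 2, 0 and 1. Snord14d and Snord14e, in the same heat shock gene, followed with 150 to 195 and 151 to 157 counts in MES and 0 to 17 and 4 to 27 in MEFs. The U14 copies are similar, so their counts may be shared among them. Snord118, which is U8 and is needed for the large subunit RNAs, had 126 and 109 counts in MES against 23, 19, 22 and 16 in MEFs, a log2 change of 3.72 ± 0.37 (SE; edgeR adjusted p = 1.61e-05). Rnu3a, a U3 gene, had 31 and 16 counts in MES and 1 or 2 in each MEF library. The summed level of the list was 285.8 ± 19.5 CPM (SD, n = 2) in MES against 12.6 ± 4.77 CPM (SD, n = 4) in MEFs.

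By box class, named C/D box snoRNAs were higher in 43 of 70 tested rows and lower in 10, close to the 61.5% and 14.2% of all tested snoRNAs, and among snoRNA rows alone higher in 34 and lower in 18. Named H/ACA snoRNAs were mostly near 0 counts: of 44 rows 33 had a count and 6 were tested, of which 5 were higher and 1 was not called. All of the 5 but Snora21 passed the filter through the MES libraries alone. Beside Snora21 and Snora43, the higher ones were Snora74a at 5.30 ± 0.50 (SE), Snora7a, with 81 and 68 counts in MES and 1 count in mmS2 alone of the MEF libraries, and Snora62, with 28 and 27 counts in MES and 3, 0, 0 and 3 in MEFs. Their summed level was 9524 ± 1065 CPM (SD, n = 2) in MES against 34.4 ± 16.9 CPM (SD, n = 4) in MEFs, nearly all of it Snora21. Small Cajal body RNAs, which guide the modification of snRNAs, had 1 tested row. Scarna9 had 19 and 4 counts in MES against 33, 24, 44 and 33 in MEFs and was not called (edgeR adjusted p = 0.614). Its log2 fold change of -0.38 ± 0.66 (SE) became 0.30 without MES replicate 2, and -1.80, called lower, among snoRNA rows alone (edgeR adjusted p = 0.0232).

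The snoRNAs of Gas5, a noncoding host gene of growth arrest, held 2 of the 5 most abundant snoRNAs of MES cells. Of 9 tested, 6 were higher in MES, near the 61.5% of all tested snoRNAs, and 3 were not called, and their summed level was 50930 ± 5347 CPM (SD, n = 2) in MES against 7167 ± 944 CPM (SD, n = 4) in MEFs. Gm26224 had 53873 and 40428 counts in MES against 2223, 2077, 3886 and 1100 in MEFs, a log2 change of 5.60 ± 0.37 (SE; edgeR adjusted p = 2.68e-06). Gm22357 had 44492 and 42648 counts in MES against 5664, 6214, 4334 and 4570 in MEFs, at 4.2 ± 0.36 (SE; edgeR adjusted p = 7.22e-06). Snord80, whose row overlaps an identical one, and Gm25789 were higher by 4.11 ± 0.33 (SE) and 4.2 ± 0.35 (SE). The 9 rows of this gene did not move together: log2 fold changes ran from -0.72 to 5.60. With library size alone, and among snoRNA rows alone, 2 of the 9 were lower in MES.

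Unequal changes within 1 host gene were common. Of 34 host genes with at least 2 tested snoRNAs, 10 had called snoRNAs in both directions. In 20 of the host genes all called snoRNAs were higher in MES, and in 4 all were lower. Over all tested snoRNAs, 61.5% were higher and 14.2% lower. Of the tested snoRNAs, 30 passed the filter through the MES libraries alone, all 30 called higher, Gm26447 and Gm23187 among them. Such rows can enter the counts of host genes only as higher. In Ncl, Snord82 was higher by 8.10 while Gm24148, whose row is also listed as a miRNA, was lower at -3.72 ± 0.58 (SE; edgeR adjusted p = 2.57e-04). Gm24148 had 2472, 4740, 4084 and 5788 counts in MEFs and 166 and 139 in MES. In Eif4a2, Gm26447 was higher at 7.33 ± 0.69 (SE) and Snord2 lower at -1.49 ± 0.43 (SE; edgeR adjusted p = 0.0105). In Nop56, which encodes another core protein of C/D box particles, Gm23187 and Gm23650 were higher, at 6.55 and 4.16, and Snord110 lower, at -1.35 ± 0.54 (SE; edgeR adjusted p = 0.0437). The call of Snord110 was lost without mmS1 (edgeR adjusted p = 0.0548), against the pm pair (edgeR adjusted p = 0.063) and by limma voom (limma adjusted p = 0.112). Snord110 was also not called without MES replicate 1 (-1.40) or MES replicate 2 (-1.43). The call of Snord2 was lost without MES replicate 1 (-1.56) or 2 (-1.54). Such a difference within a host does not depend on the scaling between libraries, though the sign of each row can.

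**Figure D3:**
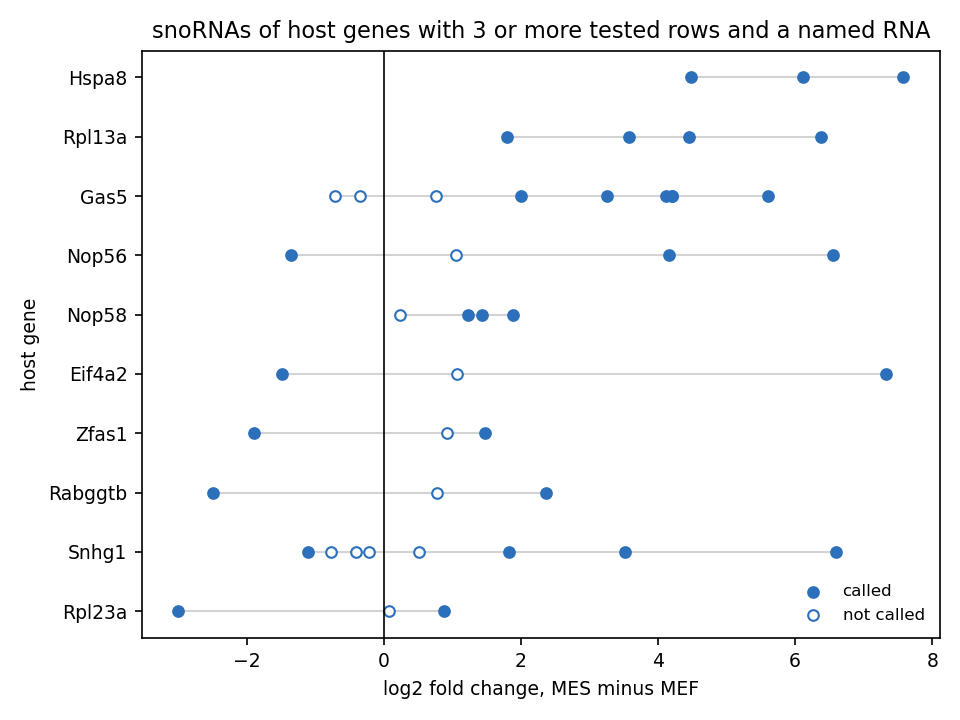
Log2 fold changes, MES minus MEF, of the tested snoRNAs of each host gene that has at least 3 of them and holds an RNA named in the text, filled where called. A grey line joins the lowest and highest of a gene, from -0.72 to 5.60 in Gas5 and from -1.49 to 7.33 in Eif4a2.

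In Snhg1, another noncoding host, 3 of 8 tested snoRNAs were higher, 1 was lower and 4 were not called. Over all tested snoRNAs, 61.5% were higher and 14.2% lower. Gm25855 was higher by 3.52 ± 0.32 (SE) and Gm22680 by 1.83 ± 0.35 (SE). Snord22, with 42 and 35 counts in MES and at most 2 in a MEF library, was higher by 6.59 ± 0.89 (SE). It passed the filter through the MES libraries alone. Gm24452 was lower at -1.10 ± 0.34 (SE; edgeR adjusted p = 0.0145), a call lost without MES replicate 1 (edgeR adjusted p = 0.103) or 2 (edgeR adjusted p = 0.143). The most abundant of them, Gm22744, had 5937 and 5087 counts in MES against 18873, 15059, 32282 and 20510 in MEFs, at -0.77 ± 0.34 (SE; edgeR adjusted p = 0.0591). It was lower and called with DESeq2 (-0.94), RLE factors (-0.94), library size alone (-1.59) and dominant rows left out (-0.93). The same held without mmS1 (-1.02) or mmS2 (-0.95), against the pm pair (-1.17), and among snoRNA rows alone (-2.26). Among snoRNA rows alone, 5 of the 8 were lower and 2 higher, and Gm22680 was no longer called.

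In Nop58, beside Snord70, Gm26293 was higher by 1.43 ± 0.34 (SE), Gm26287 by 1.88 ± 0.34 (SE) and Snord11 by 1.23 ± 0.33 (SE), with edgeR adjusted p values of 0.00327, 6.04e-04 and 0.00632. Gm26293, the most abundant after the leading pair in MES, had 128191 and 128430 counts there and 135211, 126429, 87309 and 75023 in MEFs. Among snoRNA rows alone none of the 4 was called higher, and Gm26293 and Snord11 were at -0.05 and -0.25. Snord11 was not called with library size alone, nor without MES replicate 1 (edgeR adjusted p = 0.0753) or 2 (edgeR adjusted p = 0.088). In Rpl13a, a ribosomal protein gene known for its stress-related snoRNAs, all 4 tested rows were higher, against 61.5% of all tested snoRNAs. Snord34 had 496 and 439 counts in MES against 16, 17, 10 and 7 in MEFs, at 6.38 ± 0.44 (SE; edgeR adjusted p = 2.68e-06), Snord35a was at 4.45 ± 0.69 (SE) and Snord32a at 3.58 ± 0.37 (SE). Snord33, at 1.79 ± 0.50 (SE), shares nearly all reads with the miRNA row mmu-mir-5121, at 1.78 ± 0.50 (SE), and neither was called with library size alone or without mmS1, MES replicate 1 or MES replicate 2 (Snord33, edgeR adjusted p = 0.0601, 0.0624 and 0.0553). Among snoRNA rows alone Snord33 was at 0.32 and not called (edgeR adjusted p = 0.502). In Taf1d, Gm24357 was higher by 3.16 ± 0.51 (SE), and Gm24299, with 7373 and 6055 counts in MES and 9596 to 20412 in MEFs, was at 0.04 ± 0.34 (SE; edgeR adjusted p = 0.913), and lower at -1.45 among snoRNA rows alone (edgeR adjusted p = 0.00283).

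Over all 42 tested snoRNAs hosted by ribosomal protein genes, 28 were higher in MES and 7 lower, near the 61.5% and 14.2% of all tested snoRNAs, with a median log2 fold change of 2.82 against 2.49 over all tested snoRNAs. Snord99, in the noncoding host Snhg12, and Gm23008, in the ribosome assembly gene Ppan, were further examples, at 5.34 ± 0.36 (SE) and 5.63 ± 0.40 (SE). AC161199.1, a row typed as miRNA in an intron of the ribosomal protein gene Rpl3, went with these snoRNAs, at 3.40 ± 0.39 (SE; edgeR adjusted p = 3.24e-05). Snord64 and Snord107, from the imprinted Prader-Willi locus, were both higher in MES, Snord64 having passed the filter through the MES libraries alone. Snord64 had 256 and 245 counts in MES against 4, 15, 3 and 2 in MEFs, a log2 change of 6.48 ± 0.70 (SE). Snord107 was higher by 2.82 ± 0.46 (SE; edgeR adjusted p = 3.15e-04), and the other 2 rows of that list had no count.

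The 21 snoRNAs lower in MES included several abundant ones. Gm25878, in the noncoding host Zfas1, had 146474, 150929, 126830 and 174070 counts in MEFs and 18825 and 18220 in MES, a log2 change of -1.90 ± 0.40 (SE; edgeR adjusted p = 0.0015). Snord111, in the splicing factor gene Sf3b3, had 24782, 37380, 37766 and 35333 counts in MEFs and 1933 and 2013 in MES, at -2.96 ± 0.42 (SE; edgeR adjusted p = 1.42e-04). Snord4a, in an intron of Rpl23a, had 12354, 18148, 35488 and 28634 counts in MEFs and 1409 and 1230 in MES, at -3.0 ± 0.51 (SE; edgeR adjusted p = 4.31e-04). In each of them both MES libraries lay below every MEF library. Snord72, in Rpl37, was at -2.62 ± 0.42 (SE; edgeR adjusted p = 2.76e-04) and Snord45b, in Rabggtb, at -2.50 ± 0.41 (SE; edgeR adjusted p = 3.46e-04).

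Of 1384 rows typed as snRNA, 24 had a count and 2 were tested, both higher in MES. Gm25360 had 35 and 24 counts in MES against 0, 0, 1 and 15 in MEFs, at 3.83 ± 1.28 (SE; edgeR adjusted p = 0.0192), and Gm26316 had 28 and 17 in MES and 5, 12, 9 and 24 in MEFs, at 1.88 ± 0.75 (SE; edgeR adjusted p = 0.0421). Gm25360 passed the filter through the MES libraries alone. The groups of Gm26316 overlapped. Its call was lost when any library other than pmS2 was left out, and Gm25360 was not called without pmS1 (edgeR adjusted p = 0.0541), MES replicate 1 (edgeR adjusted p = 0.119) or MES replicate 2 (edgeR adjusted p = 0.0722). The other values for Gm26316 were edgeR adjusted p = 0.0561 to 0.305.

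The directions of snoRNA rows differed with their length. Of 28 tested rows of at least 100 nucleotides (nt), 24 were higher and 2 lower, with a median log2 fold change of 5.72, and of 120 shorter ones 67 were higher and 19 lower, with a median of 1.67. Of the longer rows, 18 passed the filter through the MES libraries alone, as did 12 of the shorter ones. Of those that either group would have passed, 6 of 8 longer and 55 of 103 shorter rows were higher. The longer rows summed to 15300 and 12750 CPM in MES and to 177.6, 128.2, 265 and 153.5 CPM in the MEF libraries. Snora21 alone, at 10090 and 8594 CPM, made up most of the MES sum. In bins the medians were 0.07 under 70 nt (23 rows), 2.13 from 70 nt (55 rows), 1.43 from 80 nt (31 rows), 4.45 from 90 nt (15 rows) and 5.25 from 110 nt (24 rows). The rank correlation of length and log2 fold change across the 148 snoRNA rows, which share libraries and are not independent, was 0.418. Length is that of the annotated row, not of the reads. Among miRNA rows, where the row is the hairpin, medians were -2.45 under 100 nt (95 rows) and -1.40 from 100 nt (14 rows). Whether the small RNA enrichment step differed between the cell types is not stated, and its part in these differences was not tested. Within 1 length class the directions were mixed, as the 67 and 19 rows under 100 nt show.

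**Figure D4:**
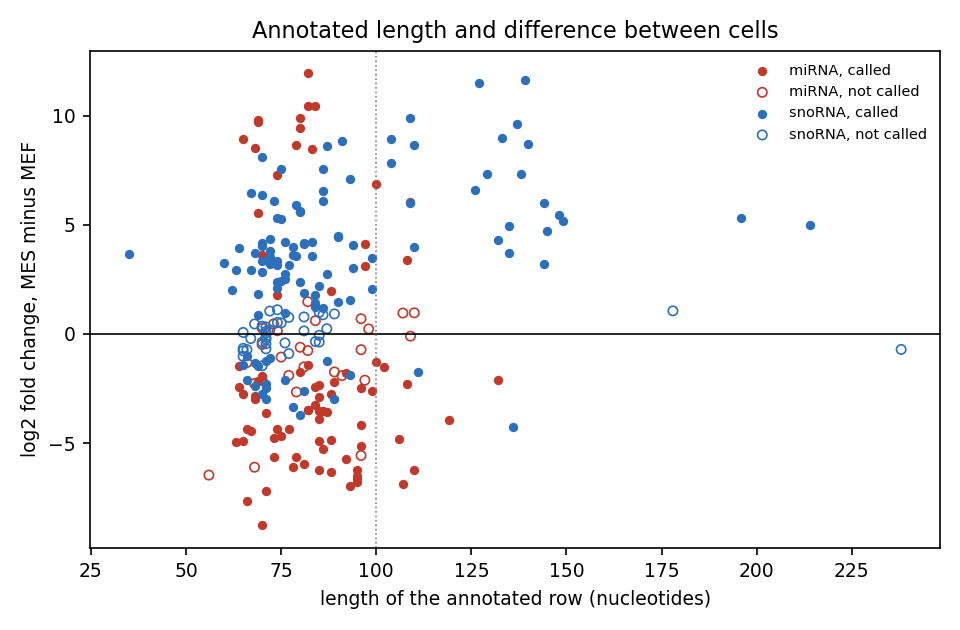
Log2 fold change, MES minus MEF, against the length of the annotated row in nucleotides, for tested miRNA rows (red) and snoRNA rows (blue), filled where called, with a dotted line at 100 nt. Of the 28 snoRNA rows from 100 nt upwards, 24 were called higher in MES, while rows of 60 to 100 nt lie on both sides of 0.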

How the data were processed

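The deposited values are raw counts, with no normalization by the authors, per the file headers. The tools in the submitters' processing notes are bedtools 2.25.0, SAMtools 1.2.1, BWA 0.7.12 and cutadapt, and the build is mm10. Which step each served, whether counting used strand, and what the tag q10 in the column names means is not given in any source used here. Per the labels' protocols, ribosomal RNA was removed before capture, and TEsR ligates linkers, removes caps, amplifies and captures without size selection, so shares follow capture and ligation as well as abundance. The 2 libraries made by TruSeq were not used.

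Row types, host genes (same strand) and snoRNA sequences came from GENCODE vM21, in which 5453 of 5518 row identifiers were found, and mature miRNAs from RefSeq. Overlapping rows with counts formed 37 pairs, and the 32 pairs alike in every library were each reduced to 1 row. Rows were tested with the quasi-likelihood test of edgeR 4.0.16 under R 4.3.3 (robust, TMM, filterByExpr, minimum count 10), 2 MES against 4 MEF libraries, with Benjamini-Hochberg adjustment over 260 rows; 200 rows had an unadjusted p under 0.05. The same steps were tested on simulated counts. The biological coefficient of variation was 43.8%. The chi-square of replicate pairs over its degrees of freedom was 19.5 in MES and 297 to 833 in MEFs, so no library was taken as a copy of another. Class shares used exact permutation tests. No set test was run. Alternatives were DESeq2 1.42.0, limma 3.58.1 (voom), other scalings, filters and row sets, each class alone, each library left out, each MEF pair and a replicate block.

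Named RNAs were the 5 most abundant per group, the 6 largest CPM ratios per direction and class (3 for snRNAs), the 6 most abundant with at most 3 counts in the lower group, up to 4 members of each list by adjusted p with its most abundant one, and the 3 most abundant uncalled rows. Not every one is described, and the snoRNAs of 1 host gene are not reported here. Mir143 and Mir145a were named as markers, and Mir34a, Mir222, Rnu3a, Snora62 and Snord14e after their values were seen, as were the list of ribosomal protein hosts, the length classes and the windows for boxes. The members and lists were chosen with earlier results of these data known.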

Additional observations from a re-analysis of the deposited data

Results flagged for a closer look

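Each named RNA with more than 3 counts in a MEF library, the shares of the 3 classes and the number of rows detected were examined for a MEF library far from the other 3, by Dixon's ratio of the gap to the range. Of 84 sets of 4 MEF values, 4 had a ratio above its 95% critical value, and chance alone flags about 1 in 20. Mir182 was at 98.88 CPM in mmS1 (MEF median 47.1 CPM, ratio 0.832). Snord35a was at 124.8 CPM in pmS1 (MEF median 26.2 CPM, ratio 0.844). Snord64 was at 3.99 CPM in mmS2 (MEF median 0.963 CPM, ratio 0.866), still far below its 92.9 CPM in MES. The snRNA row Gm25360 was at 4.67 CPM in pmS2 (MEF median 0.142 CPM, ratio 0.939), which is 15 of its 16 MEF counts.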

How the results depend on the processing

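The count of all called rows, 196, was 153 to 206 with 1 library left out and within 1.5 times its value in each alternative run; the counts without a MES library assume that the lone MES sample varies like the MEF libraries. Higher and lower rows were 99 and 60 without MES replicate 1 and 97 and 56 without replicate 2. The comparison of all called rows leaves out the fits of 1 class alone, which tested fewer rows. Counts of single classes moved further. Scaled on miRNA rows alone, 38 miRNA rows were higher and 32 lower. SnoRNA rows lower in MES numbered 32 with library size only and 43 on snoRNA rows alone, and 13 to 24 with 1 library left out, the 13 without MES replicate 2. Without the 2 most abundant rows of each group, the MEF minus MES difference in share was 21.2 percentage points for miRNAs, -21.2 for snoRNAs and -0.0117 for snRNAs, since the total is smaller. Rows detected, MEF minus MES, were 0.50 in the thinned libraries, -51.8 with 1 count as the minimum, and -3.5 to 6.83 with 1 library left out, turning negative without mmS1 (-2.83), pmS1 (-3.5) or MES replicate 1 (-2.0).

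Of 100 named rows, 69 kept direction and call in each alternative run on them. Reversed log2 fold changes were, on snoRNA rows alone, Gm26293 (-0.05), Snord70 (-1.23), Snord11 (-0.25), Snord68 (-0.27) and Gm24299 (-1.45, called lower), and on miRNA rows alone Mir19a (1.30), Mir18 (1.39), Mir92-1 (0.31), Mir34a (0.46) and Mir182 (0.89). With library size only, Snord70 (-0.50), Mir126a (-0.36) and Gm24299 (-0.74) reversed, and without a filter Snord70 (-0.01) and Gm24299 (-0.21). Gm24299, near 0, also reversed with DESeq2 (-0.14), RLE factors (-0.14), dominant rows left out (-0.12), the mm pair (-0.27), and without pmS1, pmS2 or MES replicate 1, and ranged from -0.19 to 0.1 with 1 library left out. Scarna9 ranged from -1.89 to 0.30 with 1 library left out. The cause of these changes was not tested beyond the scaling each names. With the replicate number as a block, 185 rows were called, 112 higher and 73 lower. The numbers are shared by name only: deviations of same-numbered MES and MEF libraries correlated at -0.0595 to -0.00489 over 4 pairs. Of 44 H/ACA rows 6, and of 1384 snRNA rows 2, had enough counts at this depth to be tested.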
